A study of Mus musculus with 8 samples.

Results

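The loci of 8 genes for extracellular matrix proteins were followed in the chromatin of NIH3T3 cells: Col1a1, Col1a2, Col3a1, Col5a2, Col4a1, Col4a2, Fn1 and Thbs1. ATAC-seq peaks were taken where they overlapped one of 6 fixed windows of the mouse build mm9 around these genes, in which Col3a1 shares a window with Col5a2 and Col4a1 with Col4a2. Peaks of any library that overlapped by 1 bp or more were joined into one region. The windows held 62 of the 45915 regions of the series. The windows were chosen by position, so that every region in them is a member whatever its height.

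NIH3T3 is an immortalised line of mouse embryonic fibroblasts, for which the protocol gives medium with newborn calf serum. The protocol describes HeLa culture as well, although every sample is labelled NIH3T3. The cells were kept for 24 h on G128 or on G2, names which the labels do not explain, in a series on hydrogels of polyvinyl alcohol and gelatin. Each culture gave 2 ATAC-seq libraries, each with its own peak list, and nothing in the labels says that the libraries came from separate cultures. The p-values below therefore measure only the spread between these libraries, which may be technical. RNA was also sequenced, in 4 libraries not analysed here.

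Fibroblasts secrete the matrix to which they adhere. Type I, III and V collagens assemble into fibrils, type IV collagen forms the sheet-like network of basement membranes, and fibronectin fibres join the matrix to integrin receptors at the cell surface. Genes of this group are classic outputs of growth factor, mechanical and cytoskeletal signalling in fibroblasts. In ATAC-seq the Tn5 transposase cuts DNA that nucleosomes leave free, so that a peak marks an accessible site, which in a gene locus is typically a promoter or an enhancer.

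The height of a peak is given as its summit over the background, which is the number of overlapping sequenced intervals at the summit divided by the mean background of the library. That background was 1.05 and 1.41 intervals in G128 replicates 1 and 2, and 1.10 and 1.37 in G2 replicates 1 and 2. The lists held 32540 to 42358 peaks, and their weakest peaks had summits of 18.2 to 19.0 times the background. Summits stood higher on G2 throughout the genome, with medians over the regions found in all 4 libraries of 50.3 and 58.1 times the background on G128 and 67.3 and 68.7 on G2. A difference is therefore given both as measured and after the library's own median was subtracted on the log2 scale, and the latter is called scaled. Whether a site was open in more cells or more open in each cell cannot be told apart in bulk cultures.

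No annotation or genome of mm9 was used here, so no region was placed in an exon, an intron or a promoter. Each is given by its window and position. On the RefSeq annotation of the later build GRCm38.p6, the protein-coding neighbours are Gm11544 and Sgca beside Col1a1, Bet1 and Casd1 beside Col1a2, and Gulp1 and Wdr75 beside the pair of Col3a1 and Col5a2. They are Irs2 and Rab20 beside the pair of Col4a1 and Col4a2, Atic and Mreg beside Fn1, and Rasgrp1 and Fsip1 beside Thbs1. A region near the edge of a window can thus belong to another gene. The fibroblast label was not checked against marker genes, since the lists carry no gene names.

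Most of the open sites at these matrix genes were open in both cultures. Of the 62 regions, 36 (58.1%) had a peak in all 4 libraries, where the share over all regions was 60.5%. These are called shared regions. Another 4 regions (6.45%) were listed in the pair of G2 libraries but not on G128, beside 8.32% over all regions. The reverse pattern, listed in the pair of G128 libraries and never on G2, had 0 regions here and 0.37% of all regions. The remaining 22 regions (35.5%, beside 30.8% over all regions) followed other patterns. Of these, 8 were missing from G128 replicate 1 alone, a pattern that 4347 regions outside the windows had. The shares of the windows were near those of the whole series.

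The windows differed widely in how much open chromatin they held. The Col1a1 window, 60 kb long, had 12 regions of which 9 were shared, and regions covered 13.4% of it. The Thbs1 window, of the same length, had 5 regions with 4 shared and 4.84% covered. The Col1a2 window of 90 kb had 8 regions with 5 shared, and the Col4a1/Col4a2 window of 300 kb had 27 with 14 shared. These 2 windows were covered to 3.25% and 4.46%. The Col3a1/Col5a2 window of 260 kb had only 6 regions, with 3 shared and 0.636% covered. The Fn1 window of 120 kb had 4 regions, of which 1 was shared, and 1.82% was covered. Per 100 kb the number of shared regions thus ran from 0.833 at Fn1 and 1.15 at Col3a1/Col5a2 to 15 at Col1a1.

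The windows held 43 and 51 peaks in G128 replicates 1 and 2, and 53 and 58 in G2 replicates 1 and 2. The means were 47 ± 5.66 on G128 and 55.5 ± 3.54 on G2 (SD, n = 2 each), a ratio of 1.18 where the whole lists had 1.20. The 2 G2 libraries lay above the 2 G128 libraries, with p = 0.333 by exact permutation (two-sided), the smallest that 2 against 2 libraries allow. As a share of the list the windows took 0.132% and 0.135% of the peaks on G128 and 0.125% and 0.139% on G2, so that the groups overlapped (exact permutation p = 1). The peaks covered 18555 and 24491 bp on G128 and 23759 and 28545 bp on G2, where the groups also overlapped (exact permutation p = 0.667). With lists cut to equal length, both cultures averaged 46 peaks in the windows, while the covered bases averaged 21368.5 on G128 and 24666 on G2, a ratio of 1.15 (exact permutation p = 0.667).

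Among the 36 shared regions, 1 passed the test of a difference between the cultures. The scaled log2 summits were tested with limma over all 27768 shared regions of the genome, with Benjamini-Hochberg adjustment and a threshold of 0.05. The region called lay in the Thbs1 window and was lower on G2. Lower calls made up 0.864% of all shared regions and higher calls 0.601%, so that 1 lower and 0 higher calls among 36 are near what the whole table holds. At an unadjusted p under 0.05, 2 shared regions of the windows were higher and 8 lower, together 10 of 36, where 15% of all shared regions were below that level in either direction. Among the 35 that were not called, adjusted p-values ran from 0.0963 to 0.991.

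Before scaling, both G2 libraries stood above both G128 libraries in 14 of the 36 shared regions, and 67.6% of all shared regions did so. Both G2 libraries stood below both G128 libraries in 3 regions, and 2.79% of all did so. After scaling, 6 regions had both G2 libraries above (23.8% of all) and 14 had both below (21.9% of all). The median difference over the 36 regions, G2 minus G128, was 0.15 before scaling and -0.18 after, on the log2 scale. Over all shared regions the medians were 0.34 and 0.01. The sign of the windows' median thus depended on the scaling. Its size after scaling did as well, at -0.10 under quantile normalization and -0.08 under cyclic loess.

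Col1a1 encodes the alpha 1 chain of type I collagen, the main fibril protein of connective tissue, and its window was the densest. The highest region was chr11:94789875-94790694, 820 bp wide. On G128 its summit was 149 times the background in replicate 1 and 206 in replicate 2, and on G2 it was 200 and 205. Both G2 values lay between the G128 values, and the scaled difference was -0.12 with a standard error of 0.116 (limma adjusted p = 0.653). In the 4 libraries its summit lay within 9 bp, and it ranked above 87.7% of all shared regions by mean summit.

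Further strong regions lay beyond it. The region chr11:94794360-94795438 reached 102 and 135 times the background on G128 and 121 and 117 on G2. The region chr11:94797148-94798986, the widest of all windows at 1839 bp, reached 103 and 123 times on G128 and 113 and 116 on G2. In both, the G2 values sat between the G128 values before scaling, and both G2 libraries were below both G128 libraries after it. The scaled differences were -0.31 in both, with limma adjusted p-values of 0.240 and 0.243.

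The weaker regions of the Col1a1 window did not all go one way. The region chr11:94795550-94796196 had summits of 28.5 and 41.1 times the background on G128 and of 27.3 and 27.03 on G2. It was 1 of the 3 shared regions in which both G2 libraries were lower before scaling, and its scaled difference of -0.66 had an adjusted p of 0.0963 (limma). At the far end of the window, chr11:94819154-94819918 had 37.0 and 39.0 times on G128 and 60.0 and 57.0 on G2. Both G2 libraries stood above both G128 libraries there with either scale, and the scaled difference was 0.29 (limma adjusted p = 0.465). The region chr11:94788893-94789685, 189 bp from the highest one, had 40.8 and 48.9 times on G128 and 58.2 and 68.7 on G2. It differed by 0.17 after scaling (limma adjusted p = 0.690).

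The remaining shared regions complete the window. The region at chr11:94777652-94778298 had summits of 65.4 and 68.0 on G128 and 66.4 and 76.7 on G2. Those at chr11:94799074-94799427 and chr11:94800686-94800881 were weak, with all 8 summits between 20.5 and 32.7 times the background. Averaged over the 9 shared regions, the scaled log2 summit was 0.07 and 0.14 on G128 and -0.11 and -0.14 on G2. The difference of -0.23 was larger than the spread between libraries (SD 0.05 and 0.02, n = 2 each), with an exact permutation p of 0.333. Before scaling it was 0.10, with the opposite sign and overlapping groups. With the window widened by 50 kb on each side, to 22 shared regions, the scaled difference was -0.08.

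**Figure D1:**
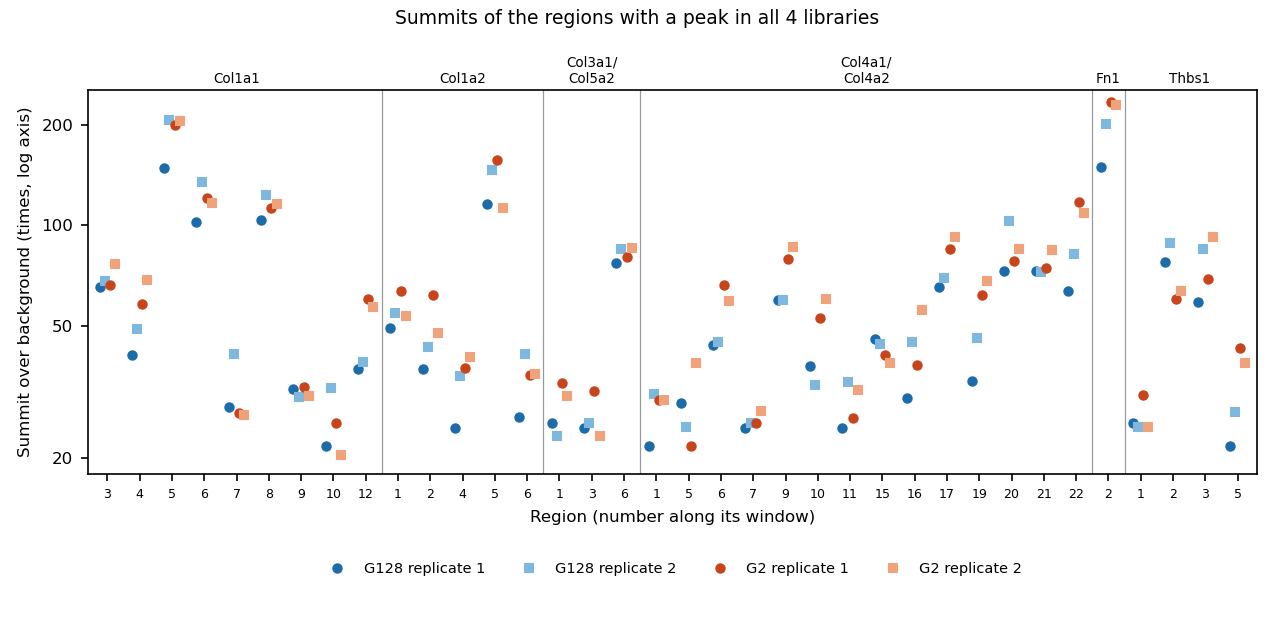
Summit over the background (times, log axis) of the 36 shared regions in each of the 4 libraries, numbered along their windows. Col1a1 region 5, Col1a2 region 5 and Fn1 region 2 are the tallest of their windows, and in Thbs1 region 2 both G2 libraries lie below both G128 libraries.

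Col1a2 encodes the alpha 2 chain, which joins with the product of Col1a1 in type I collagen. Its window had 1 strong region at chr6:4455107-4455996, with summits of 116 and 146 times the background on G128 and 156 and 113 on G2. The groups overlapped, and the scaled difference was -0.30 ± 0.138 (SE, limma adjusted p = 0.286). It depended on which G2 library was used, with -0.55 without replicate 1 and -0.05 without replicate 2. A weaker region lay 144 bp beyond it, at chr6:4456141-4456500, with summits of 26.6 and 41.1 on G128 and 35.5 and 35.8 on G2. Upstream in coordinates lay a group of narrow regions. The region chr6:4438416-4438665, 250 bp wide, had 49.3 and 54.6 times on G128 and 63.7 and 53.3 on G2. The region chr6:4439355-4439718 had 37.0 and 43.2 on G128 and 61.9 and 47.5 on G2, the largest positive difference of the window at 0.11 after scaling (limma adjusted p = 0.831). Just 201 bp from it, chr6:4439920-4440263 had no peak in G128 replicate 1 and summits of 26.9, 43.7 and 38.0 in the other 3 libraries. The value of 43.7 was the highest single summit among the regions that were not shared. The mean scaled log2 summit of the 5 shared regions differed by -0.10 with overlapping groups (exact permutation p = 0.667). The sign turned before scaling (0.23) and with the deposited signal, the value that the peak list gives each peak, summed over each region (0.12).

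Col3a1 encodes type III collagen, found beside type I in extensible tissues, and Col5a2 encodes a chain of type V collagen, which takes part in starting fibrils. Their common window was the least covered. Its strongest region lay near the far end, at chr1:45559749-45560261, with summits of 76.8 and 85.0 times the background on G128 and 80.0 and 85.5 on G2. The values of the cultures overlapped, and after scaling both G2 libraries were below, by -0.30 (limma adjusted p = 0.337). The next shared region was 146568 bp away. It was chr1:45412779-45413180, with 24.7 and 25.5 times on G128 and 31.8 and 23.4 on G2. The third, chr1:45368232-45368583, had 25.6 and 23.4 on G128 and 33.7 and 30.7 on G2. Both were close to the weakest peaks of their lists, among the lowest 6.1% of shared regions by mean summit. The mean scaled log2 summit of the 3 regions differed by -0.15 (exact permutation p = 0.667). It was 0.18 before scaling and 0.37 with the deposited signal. Without G128 replicate 1 it was -0.0547, and without G2 replicate 2 it was -0.0534.

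RefSeq promoter sequences on GRCm38.p6, from 250 bases before to 50 after the annotated start, were matched by symbol for 4 of the 8 genes: Col1a2, Col3a1, Col4a1 and Col4a2. The sequences of the others, Col1a1, Col5a2, Fn1 and Thbs1, are not shown. The promoters of Col1a2 and Col3a1 are shown because both genes encode fibrillar collagens, while their windows had 5.56 and 1.15 shared regions per 100 kb. These are the 250 bases before the start, 5′ to 3′ in the direction of the gene, with matches of the searched motifs in capitals.
Col1a2: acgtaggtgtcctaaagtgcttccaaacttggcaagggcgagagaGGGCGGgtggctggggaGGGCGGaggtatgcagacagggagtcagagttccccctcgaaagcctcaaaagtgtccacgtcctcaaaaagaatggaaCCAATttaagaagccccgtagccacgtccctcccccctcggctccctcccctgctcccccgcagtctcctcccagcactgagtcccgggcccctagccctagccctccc
Col3a1: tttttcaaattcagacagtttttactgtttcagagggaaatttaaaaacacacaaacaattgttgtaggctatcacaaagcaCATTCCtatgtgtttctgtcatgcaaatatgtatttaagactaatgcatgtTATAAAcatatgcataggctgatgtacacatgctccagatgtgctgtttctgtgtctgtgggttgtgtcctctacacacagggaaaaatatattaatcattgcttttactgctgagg

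These promoters differed in composition. Over the 300 bases, G and C made up 61% at Col1a2 with 13 CpG, and 37.7% at Col3a1 with 0 CpG. At Col4a1 and Col4a2 the shares were 74% and 73.7% with 37 and 33 CpG, where the median of all 32851 promoters in the table was 52.7% with 7 CpG. The motifs searched on both strands were CCAAT, the GC box GGGCGG, the TATA box TATAAA, the AP-1 motif TGANTCA and the TEAD motif GGAATG. They occurred in 37.4%, 35.7%, 13.6%, 7.81% and 14.7% of all promoters of the table. Col1a2 had 2 GC boxes and 2 matches of CCAAT, 1 of which lies after the start and is not printed. Col3a1 had 1 match of the TATA box, at position -117 from the annotated start, and 1 TEAD motif, which reads CATTCC on the strand shown. Col4a1 had 1 match of CCAAT and 1 GC box, and Col4a2 had 1 and 3. The GC box of Col4a1 and 1 of those of Col4a2 are the same site, in bases that both sequences share. The AP-1 motif was found in none of the 4 sequences. A match is a string of letters and not a site shown to be bound, and whether these sequences lay inside the open regions was not determined, since the builds differ.

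Col4a1 and Col4a2 encode the paired chains of type IV collagen and lie head to head, and the last 78 bases of their RefSeq promoter sequences are the same DNA read from opposite strands. Their window had open regions along most of its length. The strongest was chr8:11411529-11412862, 1334 bp wide, with summits of 63.5 and 82.2 times the background on G128 and 117 and 109 on G2. Both G2 libraries were above both G128 libraries, before and after scaling. The scaled difference of 0.31 ± 0.145 (SE) had an unadjusted p of 0.0357 and a limma adjusted p of 0.291. Next in height were chr8:11392856-11394009 and chr8:11381941-11383005. The first had 73.0 and 103 on G128 and 78.2 and 84.7 on G2, and the second had 65.4 and 69.4 on G128 and 84.6 and 92.1 on G2. Their scaled differences were -0.42 and 0.06, and neither passed the test (limma adjusted p = 0.153 and 0.896). The first became a lower call without G128 replicate 1 (limma adjusted p = 0.0431).

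Other regions of the Col4a1/Col4a2 window also differed in sign. The region chr8:11387211-11387702 had 34.1 and 46.0 times the background on G128 and 61.9 and 67.9 on G2, which gave the largest positive scaled difference of the window, 0.38 (limma adjusted p = 0.307). The region chr8:11372130-11372451 had 45.5 and 43.9 on G128 and 40.9 and 38.7 on G2. There both G2 libraries were lower even before scaling, and the scaled difference was -0.50 (limma adjusted p = 0.193). The broad region chr8:11312013-11313244, 1232 bp wide, had 37.9 and 33.3 on G128 and 52.8 and 59.9 on G2. Its groups did not overlap on either scale, and the scaled difference was 0.33 (limma adjusted p = 0.420). Over the 14 shared regions these differences nearly cancelled. The mean scaled log2 summit was -0.29 and -0.32 on G128 and -0.42 and -0.28 on G2, a difference of -0.05 with overlapping groups (exact permutation p = 1). Before scaling it was 0.28, and with the deposited signal 0.0153.

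The Col4a1/Col4a2 window held 3 of the 4 regions found only on G2. It also held 27 of the 62 regions, and the 3 were 11.1% of its own, beside 8.32% over all regions. The highest of the 3 was chr8:11340348-11340673, with summits of 39.1 and 42.4 times the background on G2. It lay 16889 bp from the nearest shared region. The region chr8:11268793-11269132 had 26.4 and 26.3 times, and chr8:11371326-11371710, 419 bp from a shared region, had 26.4 and 23.4. The weakest peaks of the G128 lists stood at 19.0 and 18.4 times, and what the G128 libraries had at these places below that limit was not measured. With lists cut to equal length, 2 regions of the windows were found only on G2 in place of 4, and the share over all regions went from 8.32% to 3.76%.

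Fn1 encodes fibronectin, a large glycoprotein with binding sites for integrins and collagens. Its window was dominated by chr1:71699181-71700616, 1436 bp wide and the highest region of all windows. On G128 the summits were 150 and 201 times the background, from 158 and 283 overlapping intervals, and on G2 they were 235 and 229 times, from 258 and 313. Both G2 libraries stood above both G128 libraries before scaling, with a difference of 0.42, and the groups overlapped after it. The scaled difference was 0.09 ± 0.113 (SE, limma adjusted p = 0.763). Without median scaling this region was called higher (limma adjusted p = 0.0487). It was 1 of the 6 called higher among the 36 shared regions of the windows, beside 26.6% of all. Lower limma calls were 0 of 36 (1 at an unadjusted p under 0.05) and 0.22% of all at that setting. By the deposited signal its scaled difference had the opposite sign, -0.34 (limma adjusted p = 0.210). The summit was at the same place within 9 bp in all 4 libraries.

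Nothing else in the Fn1 window was shared. The region chr1:71629806-71630210 was found only on G2, with 23.7 and 30.0 times the background, and lay 68970 bp from the strong region. Near the other edge were 2 narrow regions 102 bp apart, chr1:71726728-71726923 and chr1:71727026-71727168. The first had a peak in G128 replicate 2 and G2 replicate 1, at 26.9 and 26.4 times, and the second in G128 replicate 2 and G2 replicate 2, at 31.9 and 23.4 times. These patterns followed no culture. The nearest region outside the window was 5746 bp from its start.

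Thbs1 encodes thrombospondin 1, a secreted glycoprotein that binds matrix and cell surface receptors and can activate latent TGF-beta. Its window held the one region called, chr2:117935693-117936674, 982 bp wide. On G128 the summits were 77.8 and 88.6 times the background, and on G2 they were 60.0 and 63.6 times. Both G2 libraries were therefore lower as measured, while the median shared region was higher on G2. The region fell by 0.76 on the log2 scale after scaling, with a standard error of 0.156 (limma adjusted p = 0.00622), which is 1.69-fold lower. Before scaling the difference was -0.43 and was not called (limma adjusted p = 0.0945). Its summit lay within 1 bp in the 4 libraries.

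Leaving out either G2 library lost the Thbs1 call, and calls over all shared regions were also fewer there. The difference was -0.73 without G2 replicate 1 and -0.78 without G2 replicate 2. It was -0.75 and -0.77 without G128 replicates 1 and 2, where the call was kept. Each of these fits leaves 1 library in a group. Quantile normalization, cyclic loess and the deposited signal in place of the summit kept the call, with adjusted p-values of 0.0300, 0.0117 and 0.0363 and differences of -0.78, -0.78 and -1.02 (limma in each case). The deposited −log10 p of the peak was 6.73 and 7.05 on G128 and 6.12 and 6.25 on G2. The summits were recovered from these values, so they are not a further check. The deposited signal belongs to the same peaks of the same libraries, so it is not an independent check either.

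A second region of similar height lay 174 bp further on, at chr2:117936849-117938059. It had 58.8 and 85.0 times the background on G128 and 69.1 and 92.1 on G2, and a scaled difference of -0.16 (limma adjusted p = 0.690). Here the groups overlapped, and the position of the summit varied by 624 bp. The ratio of the called region to this neighbour within a library needs no scaling and was chosen after the values were seen. It was 1.32 and 1.04 on G128 and 0.868 and 0.690 on G2, so that the neighbour was the lower of the pair on G128 and the higher on G2. The difference of the log2 ratios was -0.60, with an exact permutation p of 0.333.

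Further along the Thbs1 window, chr2:117941956-117942298 had 21.8 and 27.6 times the background on G128 and 42.8 and 38.7 on G2. Its scaled difference of 0.40 was the largest positive value of all windows and did not pass the test (limma adjusted p = 0.356). Without median scaling it was called higher, with the lowest adjusted p of the windows (0.0109). The weak region chr2:117928006-117928222 had all summits between 24.8 and 30.9. A narrow peak at chr2:117939962-117940112 was listed in G2 replicate 2 alone, at 25.6 times. Over the 4 shared regions the mean scaled log2 summit was -0.33 and -0.29 on G128 and -0.48 and -0.50 on G2, a difference of -0.18 (exact permutation p = 0.333). The sign turned before scaling (0.15) and with the deposited signal (0.0804).

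Over all 36 shared regions the mean scaled log2 summit was -0.16 and -0.14 on G128 and -0.26 and -0.27 on G2. The group means were -0.15 ± 0.02 and -0.27 ± 0.01 (SD, n = 2 each), a difference of -0.12 with an exact permutation p of 0.333. Before scaling the order was reversed, with geometric means of 45.0 and 52.9 times the background on G128 and 56.1 and 56.9 on G2, a ratio of 1.16. The windows' summits were thus above those on G128 as measured, by less than the typical shared region of the genome.

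The 26 regions that were not shared reached summits between 19.7 and 43.7 times the background. They were 87 to 429 bp wide, with a median of 196.5 bp where the shared ones had 642.5 bp. G2 replicate 2 had a peak in 21 of them, G2 replicate 1 in 16, G128 replicate 2 in 13 and G128 replicate 1 in 1. In the same order the whole lists held 41585, 42358, 37695 and 32540 peaks. Peaks in a single library made up 9 of the 26, of which 6 were in G2 replicate 2. Outside the windows, 2959 regions had a peak in G2 replicate 2 alone and 2816 in G2 replicate 1 alone. The numbers for G128 replicates 2 and 1 alone were 1043 and 285. These counts are not read as a trait of the windows. Only 5 lay within 2 kb of a shared region of their window, and the median distance was 10181 bp. Absence from a list says only that no peak there reached the list's limit.

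The shared regions were also compared by shape. Their summit positions agreed within 50 bp over the 4 libraries in 17 of 36 regions, with a median range of 66.5 bp and a highest of 624 bp. In 13 regions the peaks of both G2 libraries covered more bases than those of both G128 libraries, and in 0 regions fewer. Over all shared regions the shares were 43.5% and 2.84%. In 7 regions at least 1 library had the region split into several peaks. None of the 36 was among the highest 10% of shared regions by mean summit, and 14 of them were above the genome's median.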

How the data were processed

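ATAC-seq peak lists of 4 libraries were used, 2 from cells on G128 and 2 from cells on G2, grouped by sample title. Per the submitters' processing notes, the tools include Bowtie2 2.2.5, SAMtools 1.7 and Genrich 0.5 and the build was mm9. Their settings, and how reads were shifted or duplicates removed, are not given in the sources used here. Each list deposited by the authors gives per peak a score, a signal, −log10 p-values and −log10 q-values and a summit offset, called per library. The score was not used, and the signal was compared between libraries only as an alternative, after median scaling.

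The deposited −log10 p-values gave back the summit pileups: their lowest 100 distinct values were fitted to a log-normal background with a spread of 0.944. The recovered pileups lay within 0.00179 of whole numbers. Regions, patterns and scaled summits were made as described in the report, with positions counted from 1. limma 3.58.1 (R 4.3.3, eBayes with a trend) was fitted over 27768 shared regions, called at 0.05. Single values per library were compared by exact permutation over 6 assignments. The recovery of pileups and the limma fit were tested on simulated data. Python 3.11.15, numpy 2.4.6, scipy 1.17.1 and pandas 2.3.3 were used.

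The windows, measures and tests were chosen with earlier results of these data known. The regions named were, per window, the 3 highest shared regions, those called, those of a single group and the largest scaled difference in each direction, and others were named after their values were seen. A wider list of matrix genes was not tested, as it needed an annotation of mm9.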

Additional observations from a re-analysis of the deposited data

How the results depend on the processing

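Alternatives concerned the scaling, the measure of height, the windows, the overlap, the length of the lists, a replicate block and the omission of single libraries. Without median scaling, 6 shared regions of the windows were called higher and 0 lower, in place of 0 and 1. Over all shared regions the shares called at that setting were 26.6% and 0.22%. The general shift between libraries of 0.33 (log2, difference of the mean library medians) stays in there, and its part in these calls was not tested. Leaving out each library leaves 1 library in a group that is assumed to vary like the others. The Thbs1 call was kept without either G128 library and lost without either G2 library, where calls over all shared regions were also fewer. Without median scaling the differences in locus level were 0.103 (Col1a1), 0.227 (Col1a2), 0.183 (Col3a1/Col5a2), 0.284 (Col4a1/Col4a2), 0.418 (Fn1), 0.154 (Thbs1) and 0.212 (all windows), so that all but Fn1 changed sign. With the deposited signal summed over a region they were -0.285 (Col1a1), 0.119 (Col1a2), 0.370 (Col3a1/Col5a2), -0.316 (Fn1), 0.0804 (Thbs1) and -0.0178 (all windows), and the cause was not tested. Quantile normalization and cyclic loess gave -0.120 and -0.121 for Thbs1 and -0.0815 and -0.0846 for all windows. Windows widened by 50 kb gave -0.0751 for Col1a1 and -0.0708 for all windows. Shared regions numbered 60 of 94 in the widened windows, where the share over all regions was 60.5%. With a stricter limit on p, which enters fewer peaks, they numbered 22 of 41, beside 66.5% of all. Regions found only on G2 numbered 2 with lists of equal length, 5 with the stricter limit and 4 to 12 without each library. The highest were 12 without G128 replicate 2 and 10 without G2 replicate 1. Over all regions the share was 3.76% with lists of equal length, 7.94% with the stricter limit and 9.7% to 18.2% without each library. Those found only on G128 numbered 2 with 50% reciprocal overlap (2.01% of all). Without each library they numbered 0 to 1 (0.834% to 2.68% of all). The ratio of peaks was 1.00 with lists of equal length. Leaving out 1 library changed the sign of the locus level at Col1a2 (0.00945 without G2 replicate 2), Col4a1/Col4a2 (0.0190 without G2 replicate 1) and Fn1 (-0.0185 without G128 replicate 1). The replicate numbers do not pair the libraries by any label, and deviations of same-numbered libraries had a correlation of 0.00279 over shared regions. With the replicate block the windows again had 0 higher and 1 lower call, and all shared regions 230 and 382 in place of 167 and 240. The smallest listed summits, 18.2 to 19.0 times the background, limit what could be seen in weak regions.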
